A study of Homo sapiens with 10 samples.

Results

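The levels of 10 genes of apical membrane trafficking were read in an epithelial form of the PC3 prostate cancer line, in a mesenchymal line derived from it, and in that mesenchymal line with OVOL1 or OVOL2 overexpressed. They are the small GTPases RAB25, RAB17, RAB38, RAB27B and RAB3B, the Rab11-family effector RAB11FIP1, the class V myosins MYO5B and MYO5C, and the synaptotagmin-like proteins SYTL1 and SYTL2. They were chosen by name and function, with earlier results of these data known. They are 10 of the 23170 genes in the deposited tables and 21 of the 37557 isoform entries.

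RNA was sequenced from 10 samples in 4 groups. PC3-Epi (2 samples) is an epithelial subpopulation of PC3 that carries luciferase and was grown from selected colonies. PC3-EMT14 (3 samples) is a stable mesenchymal population isolated after PC3-Epi was cultured together with macrophages, so it and every line made from it descend from PC3-Epi. The other lines, PC3-EMT14-OVOL1 with 3 samples and PC3-EMT14-OVOL2 with 2, were made from PC3-EMT14 by transduction with a lentivirus that overexpresses OVOL1 or OVOL2, both zinc finger transcription factors, followed by selection. No line with an empty vector was analysed here, so the effect of a transgene cannot be told apart from that of transduction and selection. The deposited values are FPKM (fragments per kilobase of transcript, scaled to the size of the library), with 1 value that pools the samples of a group, so they carry no SD, the depth of the libraries is unknown, and every ratio below is a description with no test.

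Rab GTPases mark membrane compartments and recruit the motors and tethers that move them. In polarised epithelia, Rab25 and Rab11 act on the apical recycling endosome, Rab11-family interacting proteins link these GTPases to class V myosins, and MYO5B carries the recycling vesicles along actin towards the apical surface. Rab17 is another epithelial Rab of this recycling route. Rab3 and Rab27 GTPases act later, on secretory granules that approach the plasma membrane, and the synaptotagmin-like proteins bind Rab27 there. Rab38 is best known from the transport of cargo to melanosomes and other lysosome-related organelles.

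The state of the lines was checked on their markers. CDH1, the epithelial adhesion molecule E-cadherin, stood at 1.00 FPKM in PC3-EMT14, 16.2 in the OVOL1 line, 39.2 in the OVOL2 line and 50.6 in PC3-Epi, and the mesenchymal intermediate filament gene VIM at 271, 183, 76.9 and 42.5 FPKM in the same order. ZEB1, a repressor of epithelial genes, stood at 7.59, 4.25, 1.77 and 0.130 FPKM. Of 10 macrophage markers, 9 (PTPRC, CD14 and CSF1R among them) were under 1 FPKM in all 4 lines, and CD68, which other cells also express in lysosomes, was at 54.1 FPKM in PC3-EMT14 and 13.2 in PC3-Epi. OVOL1 was at 0.0243 FPKM in PC3-EMT14 and 11.3 in the OVOL1 line, and OVOL2 was at 0.383 FPKM in PC3-EMT14 and 831 in the OVOL2 line, so the 2 transgene lines differ widely in the level of the factor they carry. The 5 epithelial markers (CDH1, EPCAM, KRT8, KRT18 and KRT19) summed to 900, 996, 1511 and 1664 FPKM in PC3-EMT14, the OVOL1 line, the OVOL2 line and PC3-Epi, and the 5 mesenchymal ones (VIM, ZEB1, ZEB2, CDH2 and FN1) to 333, 219, 105 and 87.8. KRT19 was the largest part of each epithelial sum. It did not follow the order of CDH1, at 671, 608, 862 and 742 FPKM in the same lines, whereas EPCAM, KRT8 and KRT18 did. VIM was the largest part of each mesenchymal sum. FN1 was at 36.8, 18.4, 16.5 and 33.8 FPKM and CDH2 at 18.0, 13.3, 10.1 and 11.3, both lower with OVOL2 than in PC3-Epi. In PC3-Epi OVOL1 and OVOL2 were at 4.25 and 9.91 FPKM. The part of any of these markers in the results below was not tested.

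RAB25 had a high level in PC3-Epi alone. The gene (XLOC_000739 in the tables; hg19 chr1:156030966-156040295, plus strand, protein coding) was at 24.2 FPKM in PC3-Epi and at 0.0566 FPKM in PC3-EMT14. PC3-EMT14-OVOL1 held 0.108 FPKM and PC3-EMT14-OVOL2 held 0.122. PC3-EMT14 and both lines made from it thus lay close together near 0, and PC3-Epi far above them. PC3-Epi was 427-fold higher than PC3-EMT14, a log2 ratio of 8.74 that placed RAB25 at position 47 from the top of the 12441 genes assessed, that is, with at least 1 FPKM in one of the lines compared. Genes listed at 0 in PC3-EMT14 count above it in that order. The ratio rests on a very low PC3-EMT14 value: the log2 ratio was 7.28 with 0.1 FPKM added to both values and 4.57 with 1 FPKM added. With OVOL1 the log2 ratio to PC3-EMT14 was 0.97 and with OVOL2 it was 1.15, but all 3 values were far below 1 FPKM and RAB25 was not assessed in those comparisons. Read across separately normalized tables, the OVOL1 line held 0.449% and the OVOL2 line 0.503% of the PC3-Epi level of RAB25. CDH1 came to 16.2 and 39.2 FPKM in the same lines, beside 50.6 FPKM in PC3-Epi. In bulk RNA, fewer cells that express a gene and less RNA per cell cannot be told apart.

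**Figure D1:**
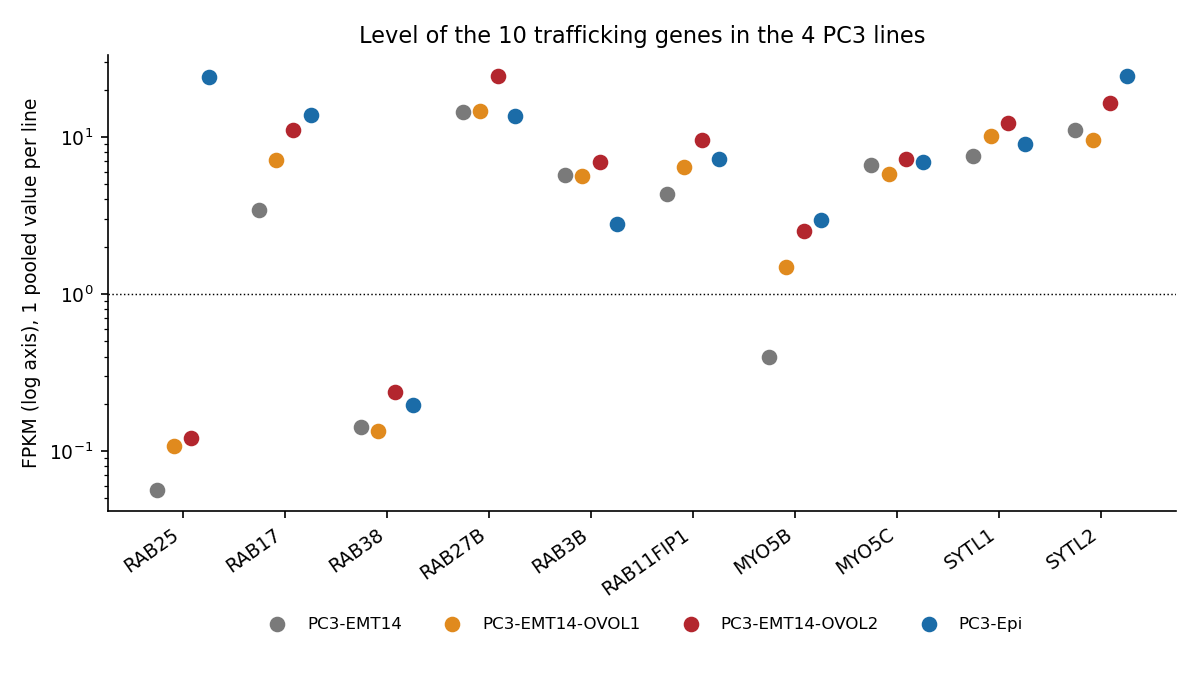
Level of each of the 10 genes in the 4 lines, as FPKM on a log axis; each point is the 1 pooled value of a line and the dotted line marks 1 FPKM. RAB25 is at 24.2 FPKM in PC3-Epi and at 0.122 FPKM or less in the other lines, while RAB17 and MYO5B climb from PC3-EMT14 through the OVOL1 and OVOL2 lines to PC3-Epi.

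The promoters were read because OVOL factors and ZEB1, whose levels differ between these lines, bind DNA. RefSeq (GRCh38.p14) gave 8 promoters for 7 of the 10 genes, and RAB38, RAB11FIP1 and SYTL2 had none in that table. In the 250 bases before each start, both strands were searched for 3 motifs. They were CCGTTA (a form of the core of OVOL sites), CAGGTG (an E-box of the kind ZEB1 binds, CACCTG on the other strand) and AACCGGTT (a grainyhead site). The OVOL2 consensus of the study also allows A for the first C of CCGTTA and T for the second. Those forms were not searched. Neither CCGTTA nor AACCGGTT was found in any of the 8, and over all 35116 promoters they occur in 2.45% and 0.117%. CAGGTG, present in 17.5% of all promoters, occurred once each in RAB25, RAB3B and MYO5C and 3 times each in RAB17 and MYO5B, and it was not found in SYTL1 or in either promoter of RAB27B. At least 3 copies stand in 163 promoters, 0.464% of all. That cutoff was not planned and equals the number of copies in RAB17 and MYO5B, so this share is only a description. The window of RAB25 (GRCh38.p14 chr1:156061094-156061149, plus strand) is shown because its level differed most, with its E-box 41 bases before the start. The windows of RAB17 (chr2:237590748-237590822, minus strand, E-boxes 78, 63 and 29 bases before the start) and MYO5B (chr18:50195186-50195325, minus strand, E-boxes 168, 148 and 54 bases before the start) are shown because they hold 3 copies and because both genes stood at least 2-fold above PC3-EMT14 with each factor. Each sequence reads 5′ to 3′ on the strand of its gene, and capitals mark the E-boxes.
RAB25: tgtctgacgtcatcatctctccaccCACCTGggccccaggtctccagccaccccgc
RAB17: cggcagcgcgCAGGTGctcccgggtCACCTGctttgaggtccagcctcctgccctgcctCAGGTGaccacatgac
MYO5B: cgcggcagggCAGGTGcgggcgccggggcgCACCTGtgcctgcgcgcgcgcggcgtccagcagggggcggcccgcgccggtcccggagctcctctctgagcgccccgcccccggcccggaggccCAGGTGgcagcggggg
A match is a stretch of letters and no evidence of binding, and a missing match says only that these letters are not in this window.

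RAB17 and MYO5B were the only genes of the set at least 2-fold above PC3-EMT14 with both factors and in PC3-Epi. RAB17 (XLOC_012775; hg19 chr2:238482965-238499769, minus strand) was at 3.44 FPKM in PC3-EMT14, 13.8 in PC3-Epi, 7.10 with OVOL1 and 11.1 with OVOL2. Over PC3-EMT14 that is 4.004-fold in PC3-Epi, 2.11-fold with OVOL1 and 3.35-fold with OVOL2. The OVOL1 and OVOL2 lines held 51.6% and 81.0% of the PC3-Epi level of RAB17. MYO5B (XLOC_009838; hg19 chr18:47349156-47721451, minus strand), the motor of apical recycling vesicles, was at 0.399 FPKM in PC3-EMT14, 2.97 in PC3-Epi, 1.48 with OVOL1 and 2.52 with OVOL2. Its ratio to PC3-EMT14 was 3.79-fold with OVOL1, 6.53-fold with OVOL2 and, in PC3-Epi, 7.45-fold, so that the OVOL1 line held 49.8% and the OVOL2 line 85.0% of its PC3-Epi level. Both genes thus stood lowest in PC3-EMT14 and highest in PC3-Epi, with OVOL2 above OVOL1. MYO5B was low in every line, and its PC3-EMT14 value was below 1 FPKM. With 1 FPKM added to both values, neither RAB17 nor MYO5B reached 2-fold with OVOL1 (log2 ratios of 0.89 and 0.83).

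RAB11FIP1 (XLOC_020895; hg19 chr8:37716465-37757015, minus strand), the Rab11 and Rab25 effector also called RCP, was at 4.35 FPKM in PC3-EMT14, 7.21 in PC3-Epi, 6.42 with OVOL1 and 9.59 with OVOL2. Its highest level was therefore in the OVOL2 line, at 133% of PC3-Epi. It passed 2-fold over PC3-EMT14 with OVOL2 (2.27-fold) and stood at 1.51-fold with OVOL1 and 1.66-fold in PC3-Epi. MYO5C (XLOC_007179; hg19 chr15:52484515-52587995, minus strand), a class V myosin of secretory epithelia, varied least, from 5.80 FPKM with OVOL1 to 7.26 with OVOL2.

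The secretory Rabs had other patterns. RAB27B (XLOC_009691; hg19 chr18:52495840-52557211, plus strand) was at 14.5 FPKM in PC3-EMT14, 14.6 with OVOL1 and 13.6 in PC3-Epi, and higher with OVOL2 at 24.3. The OVOL2 value was 1.73-fold that of PC3-EMT14 and 179% of that of PC3-Epi. RAB3B (XLOC_001483; hg19 chr1:52373628-52456436, minus strand), a Rab of regulated secretion, was lower in PC3-Epi: 5.70 FPKM in PC3-EMT14, 2.77 in PC3-Epi, 5.66 with OVOL1 and 6.93 with OVOL2. It was the only one of the 10 at least 2-fold lower in PC3-Epi (2.05-fold, log2 ratio -1.04), just past that limit, and with 1 FPKM added to both values it was not (-0.83). The OVOL1 and OVOL2 lines held 204% and 249.8% of the PC3-Epi level of RAB3B. RAB38 (XLOC_004245; hg19 chr11:87846415-87908635, minus strand) lay between 0.133 and 0.238 FPKM in all 4 lines and was not assessed.

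The synaptotagmin-like genes differed from each other. SYTL2 (XLOC_004241; hg19 chr11:85405265-85522178, minus strand) was at 11.0 FPKM in PC3-EMT14, 24.5 in PC3-Epi, 9.51 with OVOL1 and 16.5 with OVOL2. It was 2.22-fold higher in PC3-Epi, 1.54-fold higher with OVOL2 and 0.881 times the PC3-EMT14 level with OVOL1. SYTL1 (XLOC_000211; hg19 chr1:27668483-27680423, plus strand) was at 7.54 FPKM in PC3-EMT14, 9.05 in PC3-Epi, 10.2 with OVOL1 and 12.4 with OVOL2, and its highest ratio was 1.69-fold, with OVOL2. Like SYTL1, the genes RAB27B, RAB11FIP1, RAB3B and MYO5C had their highest level of the 4 lines with OVOL2, read across separately normalized tables. MYO5C did so narrowly, at 7.26 FPKM beside 6.97 in PC3-Epi. The share of all genes that stand highest in the OVOL2 line was not counted.

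Counted together, 4 of the 9 genes assessed were at least 2-fold higher in PC3-Epi than in PC3-EMT14 (RAB25, RAB17, MYO5B and SYTL2), beside 7.37% of all 12441 genes assessed. RAB25 and MYO5B reached 1 FPKM only through PC3-Epi, from 0.0566 and 0.399 FPKM in PC3-EMT14. Once assessed, these genes could only be called higher. RAB3B alone was at least 2-fold lower, beside 8.34% of all genes. A ratio above 1 was found for 7 of the 9, beside 49.1% of all genes, and their median log2 ratio was 0.73, beside -0.01. With either factor, RAB25 and RAB38 were under 1 FPKM and fell out of the counts. RAB25 was at 0.108 FPKM with OVOL1 and 0.122 with OVOL2. With OVOL1, 2 of 8 were at least 2-fold higher (RAB17 and MYO5B), beside 2.43% of 12197 genes, and none was lower, beside 1.54%. Here 6 of 8 had a ratio above 1, beside 49.7%, and the median log2 ratio was 0.25. With OVOL2, 3 of 8 were at least 2-fold higher (RAB17, RAB11FIP1 and MYO5B), beside 4.42% of 12307 genes, and none was lower, beside 2.93%. All 8 had a ratio above 1, beside 44.0%, and the median log2 ratio was 0.78, beside -0.04 over all genes. MYO5B reached 1 FPKM only through the line with the factor, for OVOL1 and for OVOL2, so there too it could only be called higher. These 3 comparisons share the PC3-EMT14 samples, and their counts are therefore not independent of each other. The 10 genes were chosen with earlier results of these data known.

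**Figure D2:**
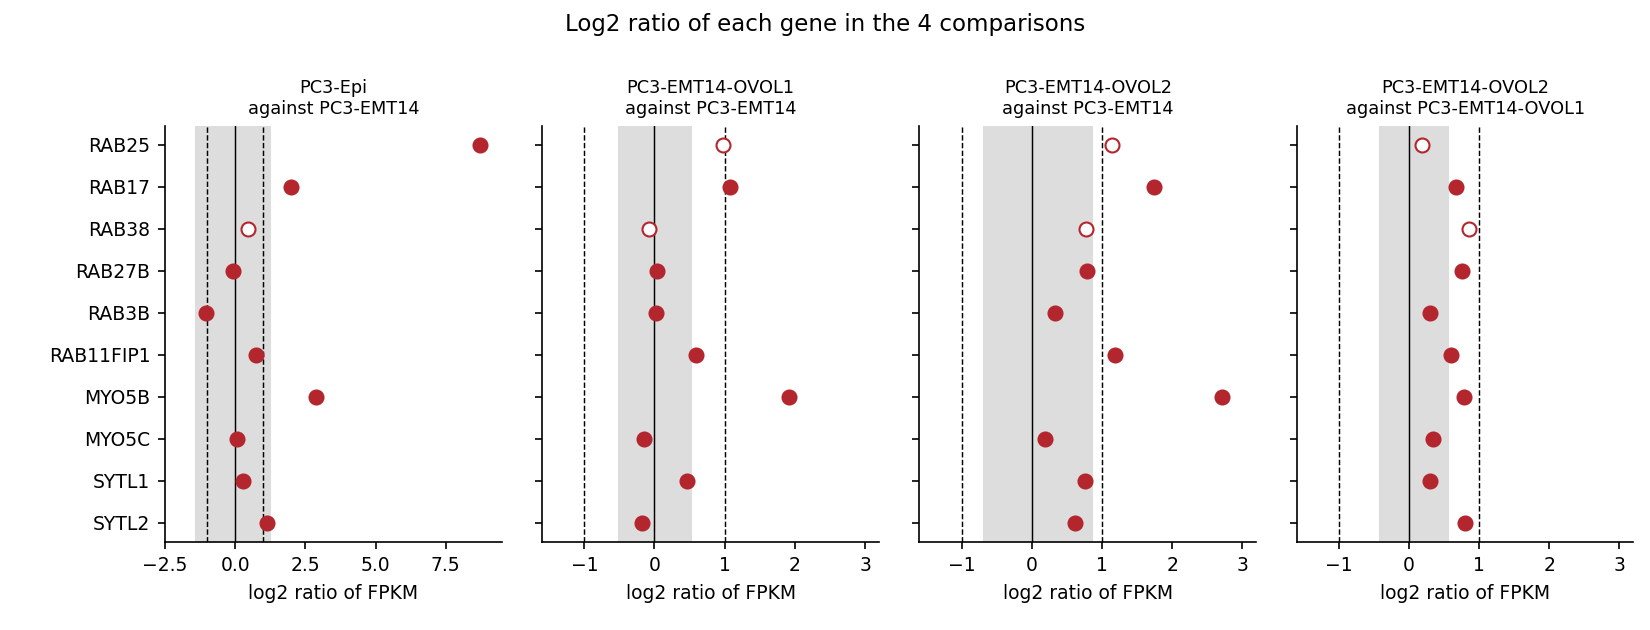
Log2 ratio of each gene in the 4 comparisons, with open circles for genes under 1 FPKM in both lines; the grey band spans the 5th to 95th percentile of all genes assessed, the dashed lines mark 2-fold, and the PC3-Epi panel has a wider axis than the others. RAB17 and MYO5B lie to the right of the 2-fold line against PC3-EMT14 in all 3 panels, and in the panel of OVOL2 against OVOL1 every gene lies to the right of 0.

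The lines with OVOL2 and OVOL1 were also compared directly, in a table of their own. No member reached 2-fold in either direction, beside 1.90% of 12188 genes higher and 1.17% lower with OVOL2. All 8 genes assessed had a higher value with OVOL2, beside 42.5% of all genes, with a median log2 ratio of 0.63 beside -0.04. RAB25 and RAB38, under 1 FPKM in both lines, were not assessed. RAB17 (1.58-fold), RAB27B (1.69-fold), RAB11FIP1 (1.51-fold), MYO5B (1.72-fold) and SYTL2 (1.75-fold) were at least 1.5-fold higher, 5 of 8 beside 4.74% of all genes. RAB3B (1.24-fold), MYO5C (1.27-fold) and SYTL1 (1.23-fold) were closer to the OVOL1 line. OVOL2 stood at 831 FPKM in its line and OVOL1 at 11.3 in its own. The study purchased its OVOL1 construct and placed OVOL2 in a vector with a V5 tag. The identity of the factor, its level and its construct therefore cannot be told apart in this comparison.

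The other genes of the same routes were counted in short lists, to be read beside the shares of all genes past 2-fold (7.37% higher and 8.34% lower in PC3-Epi, 2.43% and 1.54% with OVOL1, 4.42% and 2.93% with OVOL2). With 8 to 14 genes assessed in a list, counts of 0 to 2 do not set it apart from those shares, and they are given as a description. Of 11 other genes of the Rab11 recycling route, 1 was higher and 2 were lower in PC3-Epi than in PC3-EMT14, and none of the 10 assessed passed 2-fold with either factor. RAB11FIP4, another Rab11 effector, was at 0.0583 FPKM in PC3-EMT14 and 1.35 in PC3-Epi, and at 0.832 and 0.885 with OVOL1 and OVOL2, which is 14.6-fold and 15.7-fold over PC3-EMT14 but below the 1 FPKM at which a gene was assessed. EHD3, an ATPase of recycling endosomes, went from 9.73 to 4.07 FPKM in PC3-Epi and MYO5A, the class V myosin of melanosome and vesicle transport, from 10.6 to 4.79. RAB11A itself, the ubiquitous relative of RAB25, was at 38.8 FPKM in PC3-EMT14, 49.9 in PC3-Epi, 37.9 with OVOL1 and 36.8 with OVOL2. None of 14 genes of the Rab8 and Rab10 route and the exocyst, which tethers vesicles at the plasma membrane, passed 2-fold in any of the 4 comparisons.

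Of 17 other genes of the Rab3 and Rab27 secretory route, 11 were assessed. UNC13D (Munc13-4, a Rab27 effector that primes granules) was at 4.54 FPKM in PC3-EMT14, 25.4 in PC3-Epi, 8.64 with OVOL1 and 18.5 with OVOL2. EXPH5 (Slac2-b, another Rab27 effector) went from 1.68 to 3.88 FPKM in PC3-Epi and stayed within 2-fold with both factors. These were the 2 genes of that list higher in PC3-Epi, UNC13D was the 1 gene higher with OVOL2 and also with OVOL2 against OVOL1, and none was lower in any of the 4 comparisons. Among 12 apical SNAREs and partners assessed, MAL2, a transmembrane protein of apical transcytosis, was the only one past 2-fold, at 248 FPKM in PC3-EMT14, 619 in PC3-Epi, 460 with OVOL1 and 593 with OVOL2.

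The AP-1 adaptor, a clathrin coat complex of sorting at the trans-Golgi network and endosomes, has 8 subunit genes in the list. AP1M2, the mu subunit particular to epithelia, was at 0.430 FPKM in PC3-EMT14, 25.3 in PC3-Epi, 1.09 with OVOL1 and 2.45 with OVOL2. It was 2.60-fold over PC3-EMT14 with OVOL1, 5.87-fold with OVOL2 and 58.8-fold in PC3-Epi, and it was the 1 subunit past 2-fold between OVOL2 and OVOL1 (2.26-fold). Of the other 7 subunits assessed, AP1S3 was higher in PC3-Epi (7.92 to 19.5 FPKM), and AP1S2 was lower both in PC3-Epi (8.94 to 2.83) and with OVOL2 (8.67 to 3.42). Among 12 other unconventional myosins assessed, MYO6, the motor that moves towards the minus end of actin, went from 2.61 to 8.17 FPKM in PC3-Epi. MYO15B was lower in PC3-Epi (1.26 to 0.262 FPKM) and higher with OVOL2 (1.22 to 2.70), and no myosin of that list passed 2-fold with OVOL1.

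The whole RAB family was set beside these genes. Of 60 RAB genes in the tables, 51 were assessed in PC3-Epi against PC3-EMT14, with 4 at least 2-fold higher (7.84%, beside 7.37% of all genes) and 3 lower (5.88%, beside 8.34%) and a median log2 ratio of -0.07 beside -0.01. The family as a whole was thus near the share over all genes. The 4 were RAB25, RAB19 (0.0342 to 1.13 FPKM), RAB17 and RAB15 (5.02 to 10.8 FPKM). The 3 were RAB9B (2.32 to 0.906 FPKM), RAB40B (11.5 to 4.66 FPKM) and RAB3B. With OVOL1, RAB17 was the only one of 48 RAB genes past 2-fold, and with OVOL2 it was the only one of 49, which is 2.08% beside 2.43% of all genes and 2.04% beside 4.42%. None of the RAB genes outside the set that were assessed, 45 with OVOL1 and 46 with OVOL2, passed 2-fold. RAB19 was not assessed there, at 0.195 FPKM with OVOL1 and 0.461 with OVOL2, which is 5.82-fold and 13.9-fold over PC3-EMT14 but below 1 FPKM.

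**Figure D3:**
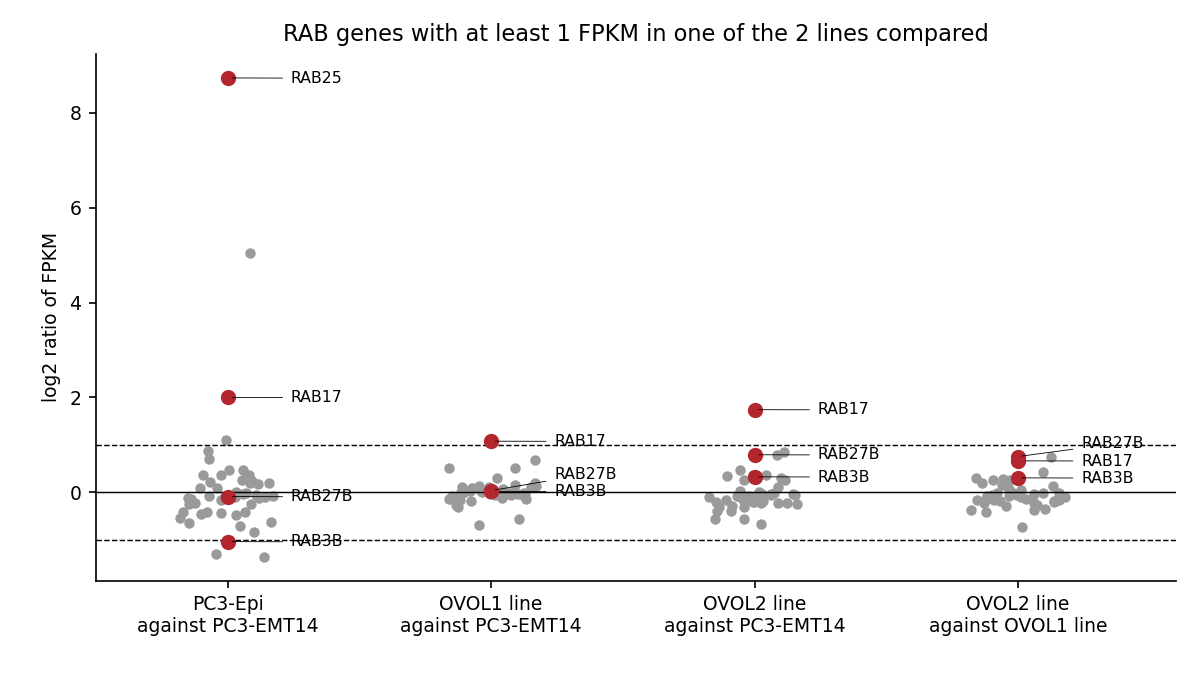
Log2 ratio of every RAB gene with at least 1 FPKM in one of the lines compared, with grey points for the family, red points for the RAB genes of the set and dashed lines at 2-fold. RAB25 stands at 8.74 in PC3-Epi and is missing from the other columns because it is under 1 FPKM there, and RAB17 is the only RAB gene drawn above the 2-fold line with OVOL1 and with OVOL2.

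Isoform entries were read for the genes that have more than 1. RAB25, RAB38, RAB27B, RAB3B, MYO5B and MYO5C have 1 entry each, RAB17, RAB11FIP1 and SYTL1 have 2, and SYTL2 has 9. The tables give entries no exons, so they are called by their order. RAB17 was split nearly evenly in PC3-EMT14, with 1.61 FPKM for the first entry and 1.83 for the second. The second also led with OVOL1 (4.04 against 3.06 FPKM) and with OVOL2 (7.00 against 4.14), whereas the first led in PC3-Epi (8.12 against 5.63). With OVOL2 the gene held 81.0% of its PC3-Epi level, with the entries in the opposite order.

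SYTL2 was led by its ninth entry in PC3-EMT14 (4.43 FPKM, 40.2% of the gene), with OVOL1 (4.40 FPKM) and with OVOL2 (7.95 FPKM). In PC3-Epi the eighth entry stood slightly above it, at 9.18 against 8.64 FPKM. The sixth and seventh entries of SYTL2 were at 0.294 and 1.34 FPKM in PC3-Epi and at or next to 0 in the other lines, and the fifth was at 0.288 FPKM in PC3-EMT14 and 1.90 in PC3-Epi. RAB11FIP1 and SYTL1 kept their leading entry in all 4 lines. The leading entry therefore differed from that of PC3-EMT14 in 2 of 4 genes in PC3-Epi, beside 7.38% of 4605 genes, and in none of the 4 with OVOL1 (beside 5.07% of 4710) or with OVOL2 (beside 6.44% of 4708). Splitting a gene between entries is an estimate, and the leading entries of RAB17 and SYTL2 held 59.1% and 37.5% of the gene in PC3-Epi.

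**Figure D4:**
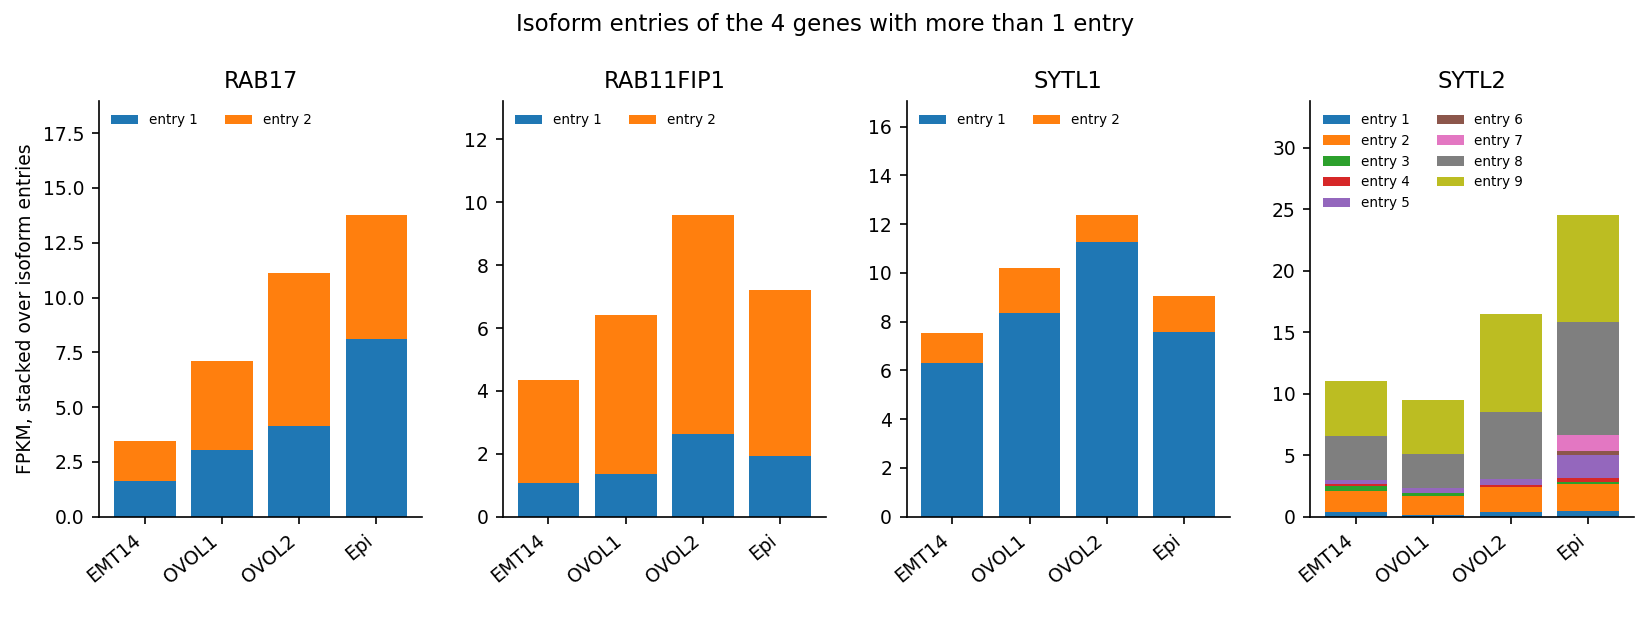
FPKM of each isoform entry, stacked, for the 4 genes with more than 1 entry in each line, named below the bars; each panel has its own axis from 0. The second entry of RAB17 is the larger share in every line but PC3-Epi, and the sixth and seventh entries of SYTL2 are visible in PC3-Epi alone.

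The genes most like RAB25 in their 3 log2 ratios to PC3-EMT14 were looked for among 11857 genes, after 0.1 FPKM was added to each value, by the Euclidean distance between the ratios. On that scale RAB25 itself is at 7.28 in PC3-Epi, 0.42 with OVOL1 and 0.52 with OVOL2. The nearest were the microRNA gene entries MIR3939 (distance 0.944) and MIR4265 (0.952), both listed at 0 in the other 3 lines and at 24.5 and 24.7 FPKM in PC3-Epi, and entries this short are poorly measured by FPKM. AMH, the anti-Müllerian hormone, came next at a distance of 1.24, with 1.09 FPKM in PC3-EMT14, 352 in PC3-Epi, 1.08 with OVOL1 and 0.914 with OVOL2. KLK5, a kallikrein protease of epithelia, followed at 1.43 (0.687, 48.6, 1.31 and 1.28 FPKM in the same order), then the GABA transporter gene SLC6A11 at 1.75 (0.0884, 13.6, 0.449 and 0.0549 FPKM). All 5 stood highest in PC3-Epi and at 1.31 FPKM or less with either factor. This shared pattern follows from the search, which picked genes by these ratios.

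The genes around RAB25 on chromosome 1 were examined after its values had been seen. Of 17 other genes within 200 kb of its locus on either side, 14 were assessed in PC3-Epi against PC3-EMT14. SEMA4A, a semaphorin, was the only one at least 2-fold higher, at 0.0590 FPKM in PC3-EMT14, 2.54 in PC3-Epi, 0.0685 with OVOL1 and 0.138 with OVOL2. The small RNA entry SCARNA4 was at 2.20 FPKM in PC3-EMT14 and listed at 0 in PC3-Epi. A count of 1 in 14 in each direction is near the share over all genes, 7.37% higher and 8.34% lower. The flanking genes ROBLD3 and MEX3A went from 79.4 to 57.0 and from 5.47 to 7.35 FPKM, within 2-fold of PC3-EMT14.

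**Figure D5:**
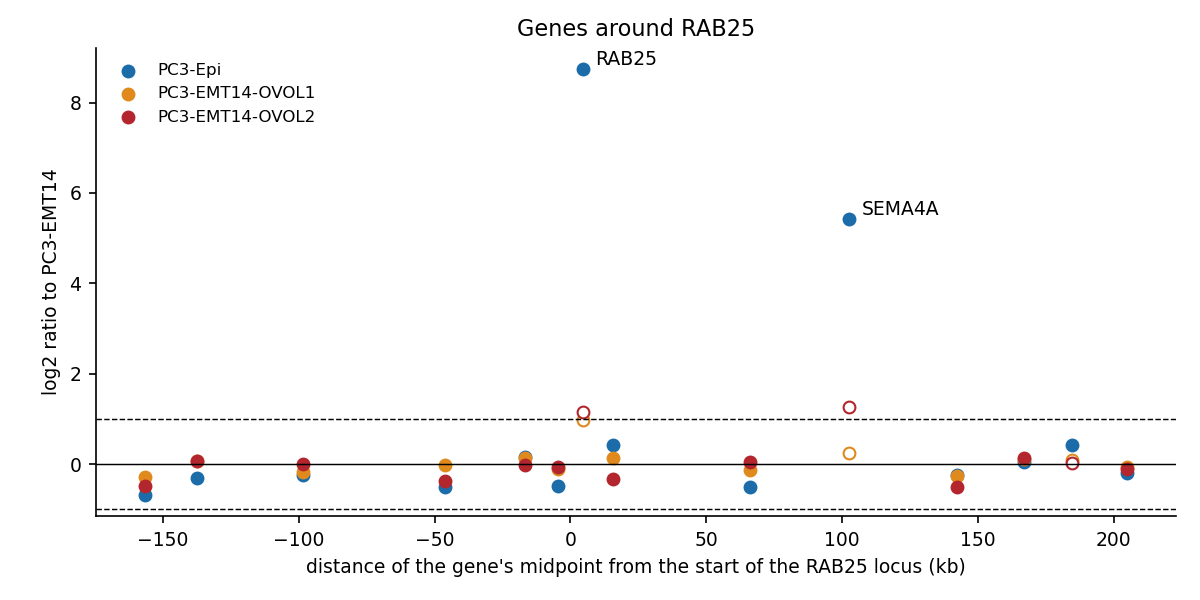
Log2 ratio to PC3-EMT14 of RAB25 and its neighbours on chromosome 1 against the distance of each gene's midpoint from the start of the RAB25 locus, in kb; blue is PC3-Epi, orange the OVOL1 line, red the OVOL2 line, open circles are genes under 1 FPKM in both lines, and dashed lines mark 2-fold. Genes not assessed in PC3-Epi or listed at 0 there are not drawn. RAB25 (8.74) and SEMA4A (5.43) stand apart in PC3-Epi.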

How the data were processed

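RNA-seq of 10 human cell line samples in 4 groups was deposited as 8 tables, 4 of genes and 4 of isoforms. The authors aligned paired reads to hg19 with TopHat, checked them with FastQC and made pooled FPKM values per group with Cuffdiff (upper quartile normalization, bias and multi-read correction). Each table was normalized separately: the same group differed by a median of 1.02 times (OVOL1) to 1.03 times (OVOL2) between the PC3-Epi table and the others. The study calls the samples of a line biological replicates. Whether reads were counted by strand is not given in the sources used here. The tables also hold the authors' fold changes, test statistics, p-values and calls, which were not used.

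A gene was assessed with at least 1 FPKM in one line compared, and called at a ratio of 2 or more, or its inverse, without a pseudocount. No test was run, since there is 1 value per group. Named were the 10 genes, up to 4 genes past 2-fold per pathway list and comparison, the 5 nearest to RAB25, markers, and isoform entries that lead in one line only. The 10 genes and all lists were chosen with earlier results of these data known. The table locus of MYO5B also holds MIR4320 and that of MYO5C holds MIR1266, both listed at 0 in every line. The call rule was tested on simulated data. Python 3.11.15, pandas 2.3.3 and matplotlib 3.10.9 were used.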

Additional observations from a re-analysis of the deposited data

Results flagged for a closer look

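RAB3B had a log2 ratio to PC3-EMT14 of 0.33 in PC3-EMT14-OVOL2 and of -1.04 in PC3-Epi, that is, opposite signs in the line with the factor and in the epithelial line. The difference was not tested, since each line has 1 pooled value, and both ratios share PC3-EMT14.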

How the results depend on the processing

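With 4-fold in place of 2-fold, the genes counted as changed went from 5 to 3 in PC3-Epi, from 2 to 0 with OVOL1 and from 3 to 1 with OVOL2. At 1.5-fold the count was 6 with OVOL2 and 5 for OVOL2 against OVOL1, in place of 0. A floor of 5 FPKM dropped MYO5B from each of these counts and left 4 genes in PC3-Epi, 1 with OVOL1 and 2 with OVOL2. With 1 FPKM added to both values, 4 were left in PC3-Epi, without RAB3B, 0 with OVOL1 and 3 with OVOL2. A lead counted only from a share of 60% of the gene left 0 differing leading entries in place of 2. With 1 FPKM added, 3 of the 5 genes nearest to RAB25 were shared. Of 170 alternative log2 ratios of the members, 152 stayed within 0.26 of the reported value, 18 moved and 0 changed sign in a called gene; RAB25 in PC3-Epi moved from 8.74 to 7.28 with 0.1 FPKM added and to 4.57 with 1 FPKM added. No paired analysis was possible because the tables hold 1 pooled value per group, and for the same reason no sample could be left out. Depth is unknown, so no precision can be given for values well below 1 FPKM, such as those of RAB25 in 3 lines and of RAB38.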
